A study of Homo sapiens with 6 samples.

Results

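The clustered histone genes are the histone genes whose symbols start with HIST1H, HIST2H, HIST3H or HIST4H, after the gene clusters they lie in. Of 19223 gene symbols in the deposited table, 70 met this rule, 6 of class H1, 17 of H2A, 18 of H2B, 14 of H3 and 15 of H4. Where a symbol had several transcripts, the one with the highest average level was used. A gene entered the test when it reached 10 in 3 or more libraries, which left 25 of the 70, among 12725 genes in all. The RNA came from LoVo, an established human cell line from a colorectal adenocarcinoma, grown in 6 samples. The Control samples, replicates 1 to 3, received vehicle. The DCC-2036 samples, replicates 1 to 3, received 2.5 μM DCC-2036, an inhibitor of tyrosine kinases. The sample labels put the treatment at 48 h, and a figure legend of the paper gives a shorter time. The labels do not say that replicates were separate cultures, so p-values measure the spread between these samples, and with 3 against 3 an exact two-sided permutation test cannot give a p below 0.1.

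Most clustered histone genes are replication-dependent: they are transcribed in S phase, when newly made DNA must be packed into nucleosomes. H2A, H2B, H3 and H4 form the nucleosome core and H1 binds the linker DNA. Their mRNAs usually end in a conserved stem-loop, bound by SLBP, in place of a poly(A) tail, and NPAT drives their transcription, whereas some of these genes also make polyadenylated transcripts when cells stop dividing or differentiate. Whether poly(A) RNA was selected before the libraries were made is not given in the sources used here, so each level is that of the RNA these libraries captured.

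The deposited values are a signal per transcript, not whole numbers, adjusted by the authors, and the reads behind each library are unknown. Over all genes replicates lay closer together in Control than in DCC-2036, and over the tested histone genes they did not. Over the 12725 genes, the SD of the log2 difference between a pair of libraries was 0.29 to 0.32 in Control and 0.40 to 0.65 in DCC-2036, widest between DCC-2036 replicates 1 and 3. Over the 25 histone genes tested it was 0.82 to 0.93 in Control and 0.48 to 0.75 in DCC-2036. These 25 include 4 genes that the filter kept through DCC-2036 alone, such as HIST1H3A, at 7.63, 0.73 and 3.66 in Control. The part of such low Control values in this contrast was not tested. DCC-2036 replicate 2 lay between replicates 1 and 3 of its group in 67.6% of the 12725 genes. Among those 25, DCC-2036 replicate 3 was the highest of its group in 19, and replicate 1 the lowest in 18. Values near 0 behaved differently in the groups. In the DCC-2036 libraries a transcript was at 0 in all 3 or in none, and 2061, 2354 and 2277 values lay between 0 and 0.5, where the Control libraries had 0 such values. In a least-squares fit these small values took 0.0027 to 0.013 of the value in each other library of the group. Of the tested histone genes, 0 had a DCC-2036 value in that range. The reason was not tested, and the p-values treat the libraries as independent.

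The tested clustered histone genes were mostly higher with DCC-2036. Of the 25, 13 rose at an adjusted p under 0.01 (limma on log2(value + 1), adjusted over all genes), where 19.2% of all 12725 genes did. None of the 25 fell by the same rule, where 22.7% of all genes did, and at an unadjusted p under 0.05, 0 were lower and 18 higher, where 36.1% and 30.5% of all genes were. In 18 of the 25 all DCC-2036 values lay above all Control values, as in 32.9% of all genes, and in 0 they lay below, as in 38.1% of all genes. The median log2 fold change was 1.37 over the 25 genes and -0.09 over all genes. The filter itself favours genes that are high in a group: 4 of the 25 reached 10 in all DCC-2036 libraries and in no Control library, so they had to differ. Among the 15 members with 10 or more in all 6 libraries, 10 rose and the median was 1.46. The count of 13 fell to 8 without Control replicate 1 and to 7 without DCC-2036 replicate 2, while that over all genes fell from 2442 to 968 and 929. Scaled to equal library totals, 12 rose and the median was 1.20 against -0.29 over all genes, while calls over all genes went from 2442 higher and 2887 lower to 1672 and 3442. These are bulk samples, so more cells that express a histone gene and more of its RNA per cell cannot be told apart.

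**Figure D1:**
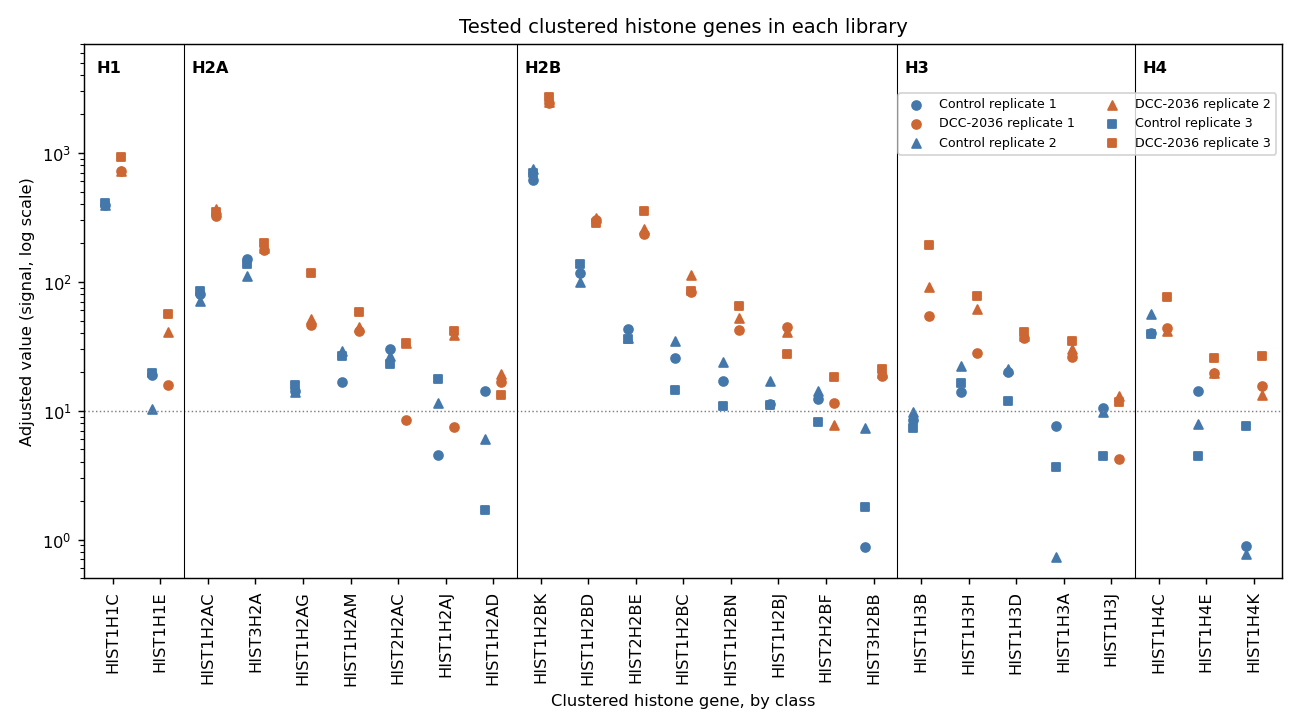
Adjusted value (signal, log axis) of each of the 25 tested genes in every library, grouped by class and ordered by mean, with Control in blue, DCC-2036 in orange and the filter value of 10 as a dotted line. HIST1H2BK lies between 611 and 749 in Control and between 2453 and 2700.5 in DCC-2036, and HIST2H2AC overlaps between the groups.

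Over all 70 genes the summed signal was 1756, 1864 and 1825 for Control replicates 1 to 3, against 4894, 5313 and 6133 for DCC-2036. The groups did not overlap, and the ratio of the means was 3.0. These sums are of values as deposited, with library totals of 38997229 to 40587145 in Control and 43279603 to 48023306 in DCC-2036. As a share of the summed values of all genes, with 1 transcript per symbol, the ratio was 2.62. By class the ratio of the sums as deposited was 2.00 for H1, 2.49 for H2A, 3.65 for H2B, 3.95 for H3 and 1.88 for H4. The values are not per length, so a share of the sum is a share of signal and not of molecules. HIST1H2BK alone held 34.8% to 40.2% of the sum in Control and 44.0% to 50.1% in DCC-2036. Without it the ratio of the sums as deposited was 2.56. The sums had no test of their own.

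**Figure D2:**
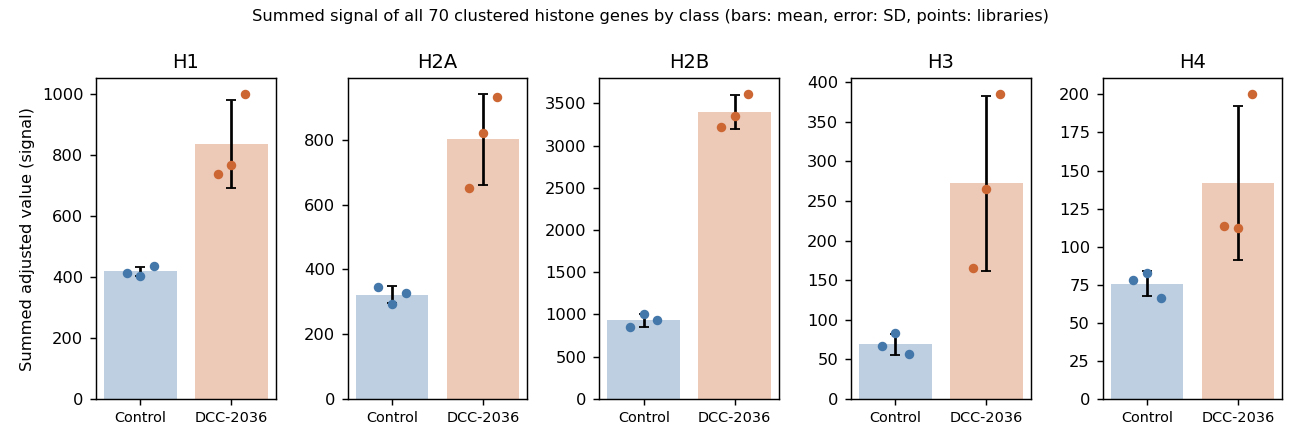
Summed signal of all 70 clustered histone genes in each class, with bars for the mean, error bars for the SD and a point per library (3 Control, 3 DCC-2036, each panel with its own axis from 0). The H2B sum is 930 in Control and 3395 in DCC-2036 on average. In every class both the mean and the SD are larger in DCC-2036 than in Control, and the SD is not set against the mean.

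The linker histones had 2 tested genes of 6. HIST1H1C, one of the main H1 subtypes of somatic cells, was at 395, 392 and 411 in Control and at 718, 718 and 932 in DCC-2036. Its groups did not overlap, and the log2 fold change of 0.97 (adjusted p = 0.0015, standard error 0.13) was the lowest among the 13 genes that rose. HIST1H1E, another somatic H1 gene, was at 18.9, 10.3 and 19.4 in Control and at 15.8, 41.1 and 56.5 in DCC-2036. DCC-2036 replicate 1 lay within the Control range, and the difference of 1.05 did not pass (adjusted p = 0.10). Without that library the difference was 1.57 (adjusted p = 0.00622), and without DCC-2036 replicate 3 it was 0.68.

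H2A genes were 7 of 17, of which 2 rose. HIST1H2AC was at 80.9, 70.9 and 84.8 in Control and at 324, 369 and 348 in DCC-2036. Every DCC-2036 value was far above every Control value, with a log2 fold change of 2.13 (adjusted p = 0.000186, standard error 0.11). HIST1H2AG was at 14.1, 14.01 and 15.7 in Control and at 45.8, 51.2 and 118 in DCC-2036. The groups did not overlap, DCC-2036 replicate 3 was far above its group, and the log2 fold change was 2.09 (adjusted p = 0.00293, standard error 0.35). It lost the call without Control replicate 1, 2 or 3 (adjusted p = 0.0145, 0.0136 and 0.013). HIST3H2A, from the small cluster on chromosome 1, was at 151, 110 and 137 in Control and at 177, 183 and 201 in DCC-2036. Its groups did not overlap, yet the difference of 0.50 did not pass (adjusted p = 0.0214). Of the other H2A genes, HIST1H2AD had a log2 fold change of 1.37, HIST1H2AJ of 1.16, HIST1H2AM of 0.98 and HIST2H2AC of -0.29, and 0 of these 4 passed. In HIST1H2AM all DCC-2036 values were above all Control values (adjusted p = 0.0117), and it passed with libraries scaled by the median of ratios, with 10 asked in all 6 libraries and with a pseudocount of 10 (0.0081 to 0.00991). With 1 library left out, the difference of HIST1H2AD ran from 0.72 (without Control replicate 3) to 1.98 (without Control replicate 1), and that of HIST1H2AJ from 0.67 (without Control replicate 1) to 1.92 (without DCC-2036 replicate 1). HIST2H2AC was the only tested member with a negative difference, at 30.2, 26.3 and 22.9 in Control and at 8.46, 33.3 and 33.5 in DCC-2036. Its sign rests on DCC-2036 replicate 1, and without that library the difference was 0.33.

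H2B genes were 8 of 18, and 7 rose. HIST1H2BK was at 611, 749 and 693 in Control and at 2453, 2503 and 2700.5 in DCC-2036. The groups lay far apart and their log2 difference was 1.90 (adjusted p = 0.000195, standard error 0.12). A second transcript listed for it, matched to the same GENCODE model, was at 316 to 371 in Control and at 1177 to 1262 in DCC-2036. HIST2H2BE, an H2B gene of the chromosome 1 cluster, was at 43.3, 36.8 and 35.8 in Control and at 237, 259 and 353 in DCC-2036. It had the highest log2 fold change of the class, 2.82 (adjusted p = 0.000206, standard error 0.18), and its groups did not overlap. HIST3H2BB was above it with a pseudocount of 0.1 (3.05 against 2.85) and without Control replicate 2 (3.18 against 2.79). HIST1H2BD was at 117, 98.9 and 138 in Control and at 302, 313 and 285 in DCC-2036. The difference was 1.35 (adjusted p = 0.000675, standard error 0.14) on its spliced transcript, and 1.74 on the unspliced transcript that holds the stem-loop (adjusted p = 0.00102, with every transcript fitted as a row). HIST3H2BB was at 0.88, 7.27 and 1.78 in Control and at 18.7, 19.5 and 21.0 in DCC-2036. It passed the filter through DCC-2036 alone, and its log2 fold change of 2.56 rests on low Control values (adjusted p = 0.00577). That value was 1.19 with a pseudocount of 10. With 1 library left out it ran from 2.11 (without Control replicate 1) to 3.18 (without Control replicate 2).

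HIST1H2BC rose with a log2 fold change of 1.94, HIST1H2BN with 1.62 and HIST1H2BJ with 1.46, none with overlap between the groups. HIST2H2BF, the remaining H2B gene tested, had a difference of 0.06, which did not pass and was -0.12 when libraries were scaled to equal totals. Leaving out libraries ended some of these calls. HIST1H2BC lost its call without Control replicate 1 or DCC-2036 replicate 2 (adjusted p = 0.0117 and 0.0122), and HIST1H2BJ without Control replicate 1 or 3 or DCC-2036 replicate 2 (0.0133 to 0.0142). HIST1H2BN lost it without the same 3 libraries (0.0105 to 0.0173), and HIST3H2BB without any library but Control replicate 2 (0.0122 to 0.0251). With no filter or with a replicate block HIST1H2BN and HIST3H2BB also lost theirs (0.0101 to 0.0155). HIST1H2BK, HIST2H2BE and HIST1H2BD kept theirs under each alternative fit, as did HIST1H1C and HIST1H2AC. If a log2 fold change of 1 or more were also asked, HIST1H1C at 0.97 would not be called.

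**Figure D3:**
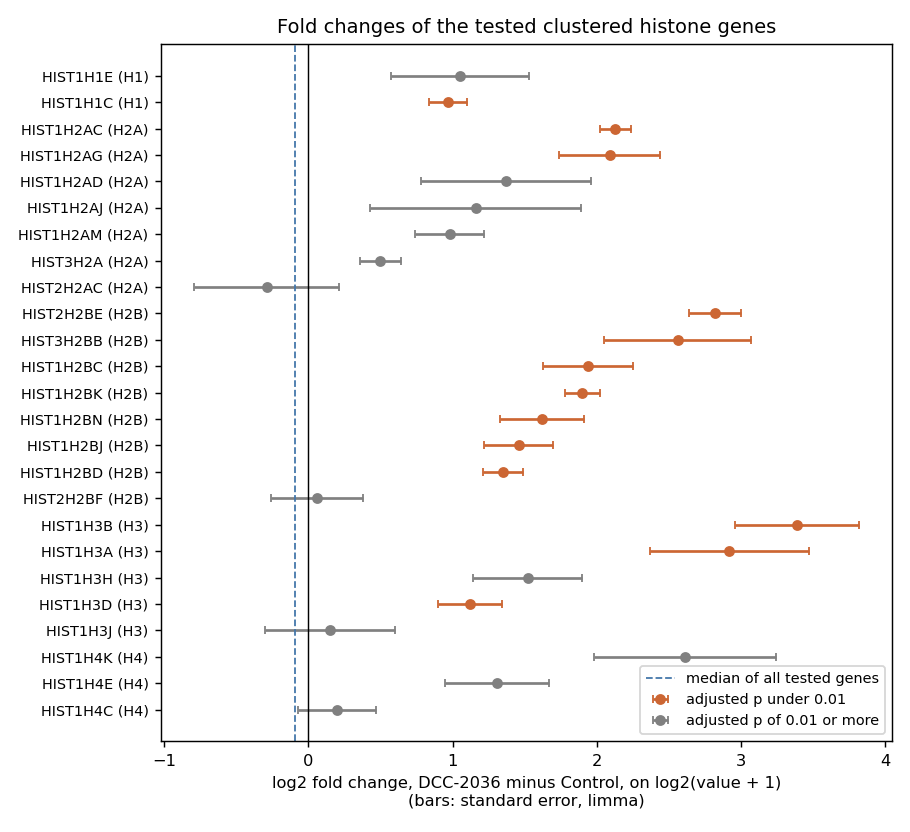
Log2 fold change of each tested gene, DCC-2036 minus Control on the log2(value + 1) scale, with limma's standard error as bars, genes with an adjusted p under 0.01 in orange and the others in grey. The dashed line is the median of all tested genes, -0.09. HIST1H3B is highest at 3.39 and HIST2H2AC lowest at -0.29.

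H3 genes were 5 of 14, and 3 rose. HIST1H3B was at 8.46, 9.71 and 7.32 in Control and at 54.2, 91.2 and 191 in DCC-2036. It had the highest log2 fold change of all members, 3.39 (adjusted p = 0.00115, standard error 0.43), with DCC-2036 values that spread 3.53-fold from lowest to highest. Without Control replicate 1, HIST1H3A was above it (3.46 against 3.39). With a pseudocount of 10, HIST1H3B and HIST2H2BE were level at 2.57. HIST1H3A was at 7.63, 0.73 and 3.66 in Control and at 26.0, 30.3 and 34.95 in DCC-2036, a difference of 2.92 (adjusted p = 0.00451, standard error 0.55). That difference was 1.55 with a pseudocount of 10. With 1 library left out it ran from 2.3 (without Control replicate 2) to 3.46 (without Control replicate 1). HIST1H3B and HIST1H3A passed the filter through DCC-2036 alone. HIST1H3A lost its call without Control replicate 3, DCC-2036 replicate 2 or DCC-2036 replicate 3 (adjusted p = 0.0171, 0.0177 and 0.0112), and with no filter or a replicate block (0.011 and 0.0121). HIST1H3D was at 19.8, 21.2 and 11.8 in Control and at 36.3, 37.9 and 40.9 in DCC-2036. The groups did not overlap, but the log2 fold change of 1.12 (adjusted p = 0.00536, standard error 0.22) lost its call without Control replicate 1 or 2 or DCC-2036 replicate 2 or 3 (adjusted p = 0.0101 to 0.0205). It also lost the call with equal totals, with no filter, with a replicate block and with a trend (adjusted p = 0.0108 to 0.017). HIST1H3H was at 14.02, 22.2 and 16.5 in Control and at 28.2, 61.6 and 77.7 in DCC-2036. Its groups did not overlap and the difference of 1.52 did not pass (adjusted p = 0.0135), while it passed without DCC-2036 replicate 1 (0.000972), with 10 asked in all 6 libraries (0.00966) and with a trend (0.00908). HIST1H3J had a difference of 0.15, which did not pass and was -0.03 with libraries scaled to equal totals.

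H4 genes were 3 of 15, and 0 rose by the test. HIST1H4C was at 40.4, 56.5 and 39.5 in Control and at 43.6, 41.4 and 76.4 in DCC-2036. The groups overlapped, the difference was 0.20 (adjusted p = 0.534), and without DCC-2036 replicate 3 it was -0.08. HIST1H4E was at 14.2, 7.84 and 4.46 in Control and at 19.7, 19.5 and 25.6 in DCC-2036, a difference of 1.31 (adjusted p = 0.0191). HIST1H4K, kept through DCC-2036 alone, was at 0.89, 0.77 and 7.55 in Control and at 15.6, 13.1 and 26.5 in DCC-2036. In both genes all DCC-2036 values were above Control, and HIST1H4K had a difference of 2.61 (adjusted p = 0.0122). HIST1H4E passed without Control replicate 1 (adjusted p = 0.0068) and HIST1H4K without Control replicate 3 (0.00285), with a pseudocount of 10, with a replicate block and with a trend (0.00574 to 0.00847). The difference of HIST1H4K was 1.13 with a pseudocount of 10. With 1 library left out it ran from 2.21 (without Control replicate 2) to 3.35 (without Control replicate 3). Whether the classes differed from each other in their response was not tested.

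The 45 genes under the filter included 4 of class H1, 10 of H2A, 10 of H2B, 9 of H3 and 12 of H4. The H1 genes were HIST1H1A, HIST1H1B, HIST1H1D and HIST1H1T. The H2A genes were HIST1H2AA, HIST1H2AB, HIST1H2AE, HIST1H2AH, HIST1H2AI, HIST1H2AK, HIST1H2AL, HIST2H2AA3, HIST2H2AA4 and HIST2H2AB. The H2B genes were HIST1H2BA, HIST1H2BB, HIST1H2BE, HIST1H2BF, HIST1H2BG, HIST1H2BH, HIST1H2BI, HIST1H2BL, HIST1H2BM and HIST1H2BO. The H3 genes were HIST1H3C, HIST1H3E, HIST1H3F, HIST1H3G, HIST1H3I, HIST2H3A, HIST2H3C, HIST2H3D and HIST3H3. The H4 genes were HIST1H4A, HIST1H4B, HIST1H4D, HIST1H4F, HIST1H4G, HIST1H4H, HIST1H4I, HIST1H4J, HIST1H4L, HIST2H4A, HIST2H4B and HIST4H4. Of these 45, 7 were listed at 0 in all libraries, namely HIST1H1A, HIST1H2AA, HIST1H2BA, HIST1H3I, HIST1H4G, HIST1H4L and HIST2H3C. The highest value in any library was 69.9, that of HIST1H2AK in DCC-2036 replicate 3, and HIST1H2AK was at 3.70 to 7.42 in Control. Their summed signal stood at 77.3, 83.8 and 79.6 in Control and at 120, 199 and 291 in DCC-2036, without overlap.

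Some of these values are uncertain because genes share sequence or position. HIST2H2AA3 and HIST2H2AA4, HIST2H4A and HIST2H4B, and HIST2H3A and HIST2H3C are near-identical copies, and other H3 and H4 genes resemble each other closely, so reads may have been split among them. In GENCODE 29 (GRCh38), the model used for HIST1H2BN holds all 393 bases of the model for HIST1H2AK on the opposite strand. In RefSeq, HIST1H2BN starts 809 bases further downstream, past the HIST1H2AK model, so this overlap is one of the GENCODE model. Which start the deposited transcript has is not given in the sources used here. The kit named in the labels does not mark strand, so reads from a stretch that both transcripts hold could not be assigned to either gene. The models of HIST1H3D and HIST1H2AD lie wholly or almost wholly in exons of a longer annotated gene of the same strand, and 346 of the 393 bases of HIST1H2AM lie in an exon of HIST1H3J, though not of the model used for HIST1H3J. How reads in such regions were counted is not given in the sources used here.

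The RNA stem-loop is the feature that sets these mRNAs apart, so its forms are shown. All 73 transcripts listed for the 70 genes were matched to GENCODE 29. For 41 of the 43 transcripts whose model has no stem-loop, the length of the model is a multiple of 3. Most of these models end with the coding region and so do not reach the stem-loop. Among the models that do, 30 genes held a perfect 6-base stem that starts with GGC, around a 4-base loop that starts with TT. The stem is in capitals, as DNA from 5′ to 3′.
Form of 17 genes of classes H2A, H2B and H3: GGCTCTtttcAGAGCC
Form of 5 genes of classes H2B and H3: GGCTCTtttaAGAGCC
Form of 5 genes of class H4: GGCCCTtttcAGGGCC
Form of 3 genes of class H4: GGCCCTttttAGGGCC

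Of the 25 tested genes, 9 had the stem-loop in the model used, and in these 9 the model ran on past it. HIST1H2BC had 116 bases after the loop, HIST2H2BE 1729 and HIST3H2BB 1917. In 6 of the 25 the last 40 bases of the model held the poly(A) signal AATAAA, namely in HIST1H2AC, HIST1H2AG, HIST1H2BD, HIST1H3H, HIST1H4E and HIST2H2BE. Of these 6, 4 rose, with a median log2 fold change of 1.80, and of the other 19, 9 rose, with a median of 1.16. This gap depends on the letters searched. A first search also accepted ATTAAA: 8 genes then held a signal with a median of 1.44, and the other 17 had a median of 1.37. That search, and the return to AATAAA as first planned, which gives the larger gap, were both made with the values in view. Many models hold no 3′ end, HIST1H2BK and HIST1H1C among them, so a model without these letters does not show that the gene lacks a signal. The deposited values cannot separate stem-loop from polyadenylated RNA of a gene.

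H2A and H2B genes often lie back to back and share a promoter region. By GENCODE starts 11 such pairs lay at most 500 bases apart on opposite strands, of which 4 had both genes tested and 4 had 1 tested. By RefSeq starts HIST1H2AK and HIST1H2BN would form a further pair, which is not counted here. In 2 of the 11 both genes rose, HIST1H2AC with HIST1H2BC and HIST1H2AG with HIST1H2BJ. HIST1H2BC was at 25.4, 34.7 and 14.5 in Control and at 83.0, 113 and 84.7 in DCC-2036, and HIST1H2BJ at 11.2, 16.9 and 10.97 and at 44.5, 41.1 and 27.5. Each of these 4 genes was higher in every DCC-2036 library than in any Control library. In 3 other pairs the H2B gene rose. HIST2H2BE rose, whereas HIST2H2AC, which starts 323 bases away, did not pass in either direction. HIST1H2BK rose beside HIST1H2AH, which was under the filter and so could not be called, at 6.63, 5.28 and 2.68 in Control and at 1.09, 4.37 and 11.3 in DCC-2036. HIST3H2BB, which had to differ to be tested at all, rose beside HIST3H2A, whose difference of 0.50 did not pass. The difference in response within a pair was not tested.

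The promoter windows of RefSeq (GRCh38.p14, 250 bases before to 50 after the start) were found for 65 of the 70 genes. The letters CCAAT, on either strand, were in 55 of the 65 (84.6%) and in 34.6% of all 35116 windows of that length. TATAAA was in 43 (66.2%) and in 11.5% of all windows, and ATTTGCAT, the octamer, in 26 (40%) and in 1.77% of all windows. The octamer was in 14 of 18 H2B and 11 of 16 H2A windows, and in 0 of 6 H1 and 0 of 13 H4 windows. Among 12 H3 windows the only match was in that listed for HIST1H3D, which is the same window as that of HIST1H2AD and so counts an H2A promoter again. CCAAT was in all windows of H1, H2A, H2B and H3 and in 3 of 13 of H4. Windows of a divergent pair overlap, so they are not separate counts. In 5 windows, those of HIST1H2BE, HIST1H2BN, HIST1H3D, HIST1H3G and HIST1H4I, the RefSeq start lies over 300 bases from the GENCODE start. Among the other 60, 50 held CCAAT, 42 TATAAA and 24 ATTTGCAT. A match is a run of letters and not a measured site. The windows of HIST1H2BK and HIST2H2BE are shown, since these genes rose while their divergent partners did not pass or were too low to test. That of HIST1H3B is also shown, as the member with the highest fold change in the fit as reported. Matches to the 3 motifs on either strand are in capitals, and those of TATAAA can overlap one another.
HIST1H2BK, chr6:27146809-27147108, minus strand: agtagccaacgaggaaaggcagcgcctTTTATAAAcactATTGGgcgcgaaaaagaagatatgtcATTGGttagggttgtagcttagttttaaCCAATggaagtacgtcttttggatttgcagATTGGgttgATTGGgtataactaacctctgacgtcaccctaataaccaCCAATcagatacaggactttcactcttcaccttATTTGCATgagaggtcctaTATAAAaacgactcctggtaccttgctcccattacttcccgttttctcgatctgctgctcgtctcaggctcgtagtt
HIST2H2BE, chr1:149886633-149886932, minus strand: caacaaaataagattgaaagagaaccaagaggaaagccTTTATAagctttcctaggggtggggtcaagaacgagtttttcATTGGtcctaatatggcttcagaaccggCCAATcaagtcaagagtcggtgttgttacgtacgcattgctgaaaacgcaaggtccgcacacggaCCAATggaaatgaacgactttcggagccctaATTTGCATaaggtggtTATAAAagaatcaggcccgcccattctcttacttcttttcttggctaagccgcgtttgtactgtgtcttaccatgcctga
HIST1H3B, chr6:26032050-26032349, minus strand: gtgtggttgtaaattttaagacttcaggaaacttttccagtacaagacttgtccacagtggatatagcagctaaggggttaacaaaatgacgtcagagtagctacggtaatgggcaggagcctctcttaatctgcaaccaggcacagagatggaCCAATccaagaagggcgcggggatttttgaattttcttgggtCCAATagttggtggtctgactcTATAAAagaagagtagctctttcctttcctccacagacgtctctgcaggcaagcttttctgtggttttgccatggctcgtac

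HIST1H2BK held 6 CCAAT, 3 TATAAA and 1 ATTTGCAT, HIST2H2BE held 3, 2 and 1, and HIST1H3B held 2, 1 and 0. Most of the HIST2H2BE window is also in the window of HIST2H2AC, read from the other strand.

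Histone variants outside the clusters take the place of clustered forms in part of the chromatin. Counts for this and the other lists stand beside 19.2% higher, 22.7% lower and a median of -0.09 over all genes. Of 17 listed, 11 were tested, 0 rose and 5 fell, with a median log2 fold change of -0.57. H1F0, a linker histone of cells that divide little, was at 8400, 7861 and 8269 in Control and at 1146, 1268 and 1835 in DCC-2036. It fell by 2.56 on the log2 scale (standard error 0.19), with groups far apart, against a rise of HIST1H1C. H2AFX, which is phosphorylated at DNA breaks, was at 4257, 3491 and 3590.2 in Control and at 1553, 1739 and 2456 in DCC-2036, and fell by 1.00 (standard error 0.19). Its call was lost without any 1 Control library or without DCC-2036 replicate 2, and with no filter or a replicate block (adjusted p = 0.012 to 0.0225). The replacement histone H3.3 comes from H3F3A and H3F3B. H3F3A was at 2825, 2971 and 3047 in Control and at 3587, 4114 and 4646 in DCC-2036, without overlap, but its difference of 0.47 did not pass (adjusted p = 0.0163), and did without DCC-2036 replicate 1 (0.00587) and with a trend (0.00463). H3F3B was at 16595, 17157 and 17549.5 in Control and at 10959, 10572.5 and 10732 in DCC-2036, and fell by 0.67 (standard error 0.09). It lost the call without Control replicate 2 or 3 or DCC-2036 replicate 2, and with a replicate block (adjusted p = 0.0102 to 0.0109). H2AFZ, the H2A.Z gene, was at 9038, 9938 and 9952 in Control and at 9101, 9599.6 and 10578.5 in DCC-2036. Those groups overlapped, and the difference of 0.02 did not pass and was -0.18 with equal totals.

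Genes that control histone gene transcription were lower more often than higher: of 14 tested, 2 rose and 7 fell, with a median of -0.72. NPAT, the coactivator of replication-dependent histone genes, was at 567, 528 and 499 in Control and at 224, 121 and 91.4 in DCC-2036, and fell by 1.96 (standard error 0.31). Its call was lost without any 1 Control library or without DCC-2036 replicate 2 (adjusted p = 0.0117 to 0.0133). CASP8AP2, a partner of NPAT in nuclear histone locus bodies, was at 628, 622 and 518 in Control and at 124, 101 and 79.2 in DCC-2036, and fell by 2.55 (standard error 0.19). In both genes every DCC-2036 value was below every Control value, while 13 of the tested histone genes rose. NFYA and NFYC, subunits of the factor that binds CCAAT, were the 2 that rose, with log2 fold changes of 0.96 and 0.73 (adjusted p = 0.00812 and 0.00231). NFYB, another subunit, had a difference of 0.47 that did not pass (adjusted p = 0.119).

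Of 23 genes for processing and decay of histone mRNA, all tested, 6 rose and 8 fell, with a median of -0.03. SLBP was at 2191, 2366 and 2173 in Control and at 2329, 2308 and 2457 in DCC-2036. The groups overlapped, and the difference of 0.08 did not pass and was -0.12 with equal totals. Of 24 histone chaperones and assembly factors, 5 rose and 7 fell, with a median of -0.26.

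DNA replication genes, whose products work in S phase when histones are made, were mostly lower. Of 40 tested, 1 rose and 23 fell, with a median of -0.63. Their summed signal stood at 123598, 129948 and 132311 in Control and at 92819.5, 87238 and 80650.0 in DCC-2036, with MCM7 the most abundant on this scale and 0 genes at 0. The DCC-2036 library with the lowest sum, replicate 3, had the highest sum of clustered histone genes. Of 20 mitosis genes 0 rose and 13 fell, with a median of -0.71, and their sum stood at 92650.4, 94074 and 94371 in Control and at 55619.9, 59198 and 58211 in DCC-2036. MKI67 was the most abundant in every Control library and TPX2 in every DCC-2036 library. The part of these lists in the histone values was not tested.

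**Figure D4:**
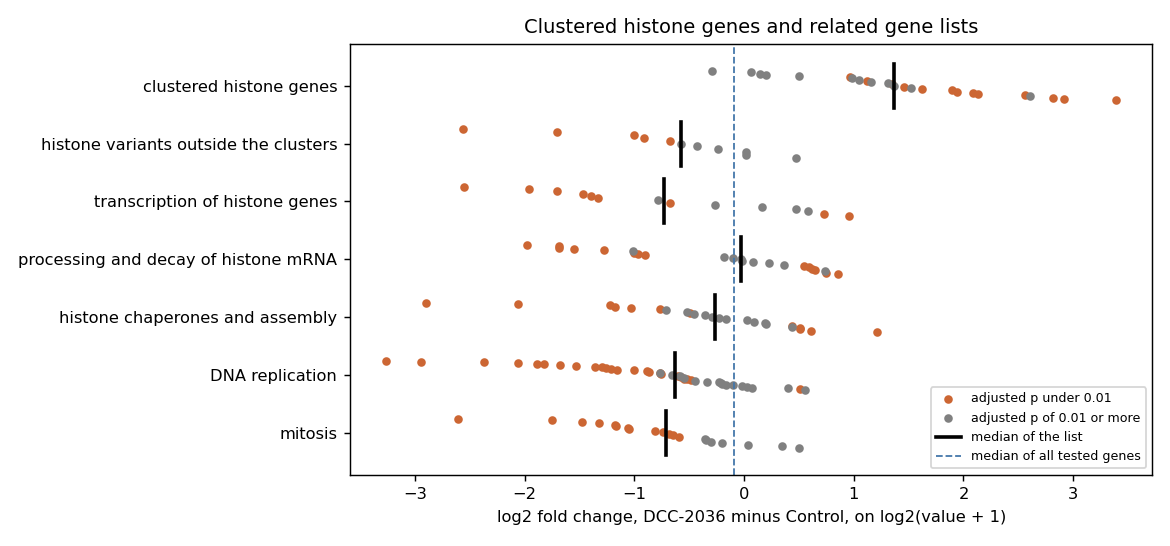
Log2 fold change (DCC-2036 minus Control, log2(value + 1)) of each tested gene in 7 lists, with genes at an adjusted p under 0.01 in orange, others in grey, a black bar for each list's median and a dashed line for the median of all tested genes. The clustered histone genes have a median of 1.37, DNA replication genes of -0.63 and mitosis genes of -0.71.

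Markers of the line were checked. Of 12 epithelial and intestinal markers 7 were tested, of which 2 rose and 1 fell, with a median of 0.29. CDX1 was listed at 0 in all libraries, and CEACAM5, VIL1, LGALS4 and GPA33 were under the filter. CDH1 rose by 1.10 and KRT8 by 0.84 on the log2 scale, KRT20 fell by 1.15, and EPCAM, KRT18, KRT19 and CDX2 did not pass, with differences of 0.29, 0.37, 0.04 and -0.09. The epithelial sum went from 104483 to 115005 in Control to 148345 to 188453 in DCC-2036, with KRT8 the most abundant. Of 4 immune markers 0 were tested, PTPRC was at 0 in all libraries, and their sum was 4.6 to 14.3 in Control and 11.1 to 30.9 in DCC-2036, mostly LYZ. Of 4 fibroblast markers 2 were tested and 0 passed, with a median of 0.41. Their sum was 370 to 425 in Control and 451 to 548 in DCC-2036, mostly COL1A1. Of 3 endothelial markers 1 was tested, VWF, with a difference of 1.16 that did not pass, and the sum was 5.0 to 14.9 in Control and 15.4 to 40.2 in DCC-2036. The part of these markers in the histone values was not tested.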

How the data were processed

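RNA was measured in 3 Control and 3 DCC-2036 libraries, grouped by sample title. The authors deposited 1 signal value per RefSeq transcript, adjusted by a method not given in the sources used here, and a log2 fold change, p-value and q-value per transcript from their own comparison, which were not used. Aligner and build are not given in the sources used here. In DCC-2036, values near 0 follow those of the other libraries of the group.

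A count test had been foreseen for whole reads. The values are not whole, so limma 3.58.1 (R 4.3.3) was fitted to log2(value + 1), which understates changes of low genes, without covariates and with Benjamini-Hochberg adjustment. The code was tested on simulated data. Python 3.11.15, numpy 2.4.6, pandas 2.3.3 and matplotlib 3.10.9 did the rest. Genes named are all tested members, 8 genes chosen by role, and those that other counts turn on. Members and lists (variants, transcription, mRNA processing, chaperones, replication, mitosis, cell type markers, HIST1 neighbours) were chosen with earlier results of these data known. Sequences are from GENCODE 29 and RefSeq GRCh38.p14. Alternatives covered scaling, filters, pseudocounts, transcripts, a replicate block, a trend, thresholds and leaving out each library.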

Additional observations from a re-analysis of the deposited data

How the results depend on the processing

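The count of 13 higher genes was 7 to 14 with 1 library left out (929 to 2717 over all genes, 2442 as reported). It was 10 to 15 under the other fits (1202 to 2880, apart from that on every transcript), but some of these tested other numbers of members. With no filter 10 of 63 members rose, and 1749 of 16667 genes. With 10 asked in all 6 libraries 12 of 15 members rose, and 2471 of 11846 genes. With every transcript as a row 15 of 28 member rows rose, and 6379 of 32323 rows in all. At an adjusted p limit of 0.05 the count of 13 became 18. At that limit 7920 of all 12725 genes were called in either direction, and those higher alone were not counted, so a like share is not given. The count of 13 became 12 when a log2 fold change of 1 or more was also asked, a limit for which all genes were not counted. The count of lower genes was 0 in each of these. The median of 1.37 was 1.05 with no filter, over 63 members, and 1.04 with a pseudocount of 10, where low values count for less. It was 1.20 to 1.52 under the other fits, and 1.36 to 1.57 with 1 library left out. Of the 13 genes, 6 kept direction and call under every alternative fit that tested them, 7 lost the call under at least 1, and 0 changed sign. Of the 6, HIST1H1C falls short of the fold change limit at 0.97, and HIST1H3B was kept through DCC-2036 alone and so had to differ. Sign changes came in genes that had not passed. Scaling to equal totals gave log2 fold changes of -0.03 for HIST1H3J, -0.12 for HIST2H2BF, -0.18 for H2AFZ and -0.12 for SLBP, and for H2AFZ it was -0.05 by upper quartile. With 1 library left out, values ran from -0.19 to 0.59 for HIST1H3J, -0.24 to 0.34 for HIST2H2BF, -0.08 to 0.37 for HIST1H4C, -0.60 to 0.33 for HIST2H2AC and -0.04 to 0.07 for H2AFZ. The cause was not tested.

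With a replicate block 10 genes rose, 0 fell and the median was 1.37, with 1202 higher and 1909 lower over all genes. Deviations of same-numbered libraries correlated at 0.081, -0.035 and -0.003. The labels do not say whether the replicate numbers mark a day or batch, and these values cannot settle it. Tests on read counts were not run, since the values are not counts. Depth is unknown, so the precision of low genes cannot be given.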

Other observations

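The HIST1 genes span chr6:25726132-27893843 (GENCODE 29, GRCh38), and 20 other protein-coding genes lie between the first and the last, of which 19 are in the table. Of these, 13 were tested, 1 rose and 8 fell, with a median log2 fold change of -0.81, where of the 20 tested histone genes of the HIST1 cluster 11 rose and 0 fell, with a median of 1.42. BTN2A2, a butyrophilin gene, was at 199, 220 and 196 in Control and at 36.2, 17.5 and 23.6 in DCC-2036, a log2 fold change of -3.0. ZNF322, a zinc finger gene and the 1 that rose, was at 243, 289 and 260 in Control and at 445, 424 and 440 in DCC-2036, a log2 fold change of 0.73. Both were named after their values had been seen.

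Of the histone chaperones, SPTY2D1 had the highest log2 fold change, 1.21, at 1087, 1104 and 1035 in Control and at 2064, 2451 and 3063 in DCC-2036. ASF1B, a chaperone of H3 and H4, had the lowest, -2.90, at 2173, 2264 and 2271 in Control and at 397, 279 and 241 in DCC-2036. Neither gene's groups overlapped, and both were named after their values had been seen.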
